A study of Danio rerio with 21 samples.

Results

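The haemoglobin genes of zebrafish were followed in whole-fish RNA of larvae and juveniles of the AB strain. The 10 globin genes described here were taken by their gene identifiers from the expression table of 26225 genes, and all 10 were found in it. The 4 adult genes were the alpha chains hbaa1 and hbaa2 and the beta chains hbba1 and hbba2. The 6 embryonic genes were the alpha chains hbae1.1, hbae3 and hbae5 and the beta chains hbbe1.1, hbbe1.2 and hbbe2. The fish were wild type, and there were 7 groups with 3 biological replicates each, 21 libraries in all. Fish of the heated groups spent 25 to 35 days post fertilization (dpf) at 35 °C and the rest of their life at 28 °C. They were collected at 35 dpf (T35D, at the end of the warm period), 45 dpf (T45D) and 60 dpf (T60D). Control fish lived at 28 °C throughout and were collected at 25 dpf (C25D), 35 dpf (C35D), 45 dpf (C45D) and 60 dpf (C60D). The parents of all fish came from 1 family, so the groups stand for 1 genetic background.

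Haemoglobin is built from alpha and beta globin chains, which bind heme and carry oxygen in the red cells. Vertebrates use different globin genes as they grow, and this exchange of embryonic for adult chains is called globin switching. In zebrafish, alpha and beta genes lie side by side in a major cluster, which holds both embryonic and adult genes, and in a smaller cluster, which holds embryonic and larval genes. The first red cells of the embryo, the primitive ones, use embryonic chains, and the definitive red cells of the kidney marrow use adult chains. In the RefSeq annotation of the GRCz12tu assembly, 8 of the 10 genes lay on chromosome 3 between nprl3 and kank2, in the order hbaa2, hbba2, hbaa1, hbba1, hbbe1.1, hbae1.1, hbbe1.2 and hbae3, with 5 other globin genes among them. The remaining pair, hbbe2 and hbae5, were neighbours on chromosome 12.

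Each library held between 11875436 and 16471158 expected counts, with a median of 13616124. Levels are given as CPM, the expected counts scaled to library size with the TMM factors of all 21 libraries, and a count of 3 stood for between 0.153 and 0.410 CPM. Genes were compared with each other in FPKM, which is scaled by gene length. Together the 10 globin genes accounted for 0.126% (T35D-2) to 0.957% (C35D-1) of a library. Several libraries did not match the label of whole fish. The 11 liver markers summed to between 4.75 and 29.1 CPM in the 3 C60D libraries, T45D-3 and T60D-2, against between 3724 and 31973 CPM in the other 16 libraries. The 15 eye markers summed to between 2.32 and 26.4 CPM in the same 5 libraries, C35D-1 and T45D-1, against at least 153 CPM in the other 14. The 15 oocyte markers summed to between 7914 and 19381 CPM in T35D-2, T35D-3, T45D-2, T60D-2 and T60D-3, to 544, 1826 and 89.2 CPM in the C35D libraries, and to at most 108 CPM in the others. The 16 red cell markers found in the table summed to between 339 and 1663 CPM, and none of them was at 0 in any library.

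The first question was how the balance of embryonic and adult chains moved in control fish. The embryonic share was calculated as the FPKM of the 6 embryonic genes in percent of the FPKM of all 10. The share was 36.0, 53.0 and 33.5% in C25D, 1.41, 4.78 and 4.12% in C35D, 0.602, 0.149 and 0.233% in C45D and 0.0477, 0.0596 and 0.0832% in C60D. It thus lay lower at every later age, and no libraries of neighbouring ages overlapped. The means were 40.8 ± 10.6%, 3.44 ± 1.79%, 0.328 ± 0.241% and 0.0635 ± 0.0180% (SD, n = 3 each). The 4 ages differed (F = 40.8, exact permutation p = 6.49e-05 over 369600 partitions, the smallest p this design allows). Over the 12 control libraries, the log2 ratio of embryonic to adult FPKM correlated with age, with Pearson's r of -0.954 (permutation p = 2e-05, adjusted p = 3e-05 over 3 relations) and Spearman's rho of -0.972 (permutation p = 2e-05, adjusted p = 2e-05). Without C60D-1 and C60D-2, r was -0.943. These are the first 2 by replicate number of the 3 C60D libraries, which tie as farthest from the median age. The alpha genes alone gave r = -0.946 (permutation p = 3e-05) and the beta genes alone r = -0.959 (permutation p = 2e-05). The 9 libraries of 25, 35 and 45 dpf, which leave out C60D, gave F = 39.6 (exact permutation p = 0.00357) and r = -0.973 (permutation p = 0.00106). The 2 sides of the ratio moved differently, and neither sum was tested. The embryonic genes summed to a mean of 3821 FPKM in C25D, 486 FPKM in C35D, 36.6 FPKM in C45D and 5.81 FPKM in C60D, and the adult genes to 5788, 14635, 10571 and 8856 FPKM. The adult sum was thus highest in C35D, and C60D (3938 to 13857 FPKM) overlapped with C25D (3761 to 7219 FPKM). The alpha chains made up between 37.9% and 51.4% of the FPKM of the 10 genes in every library of the series.

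**Figure D1:**
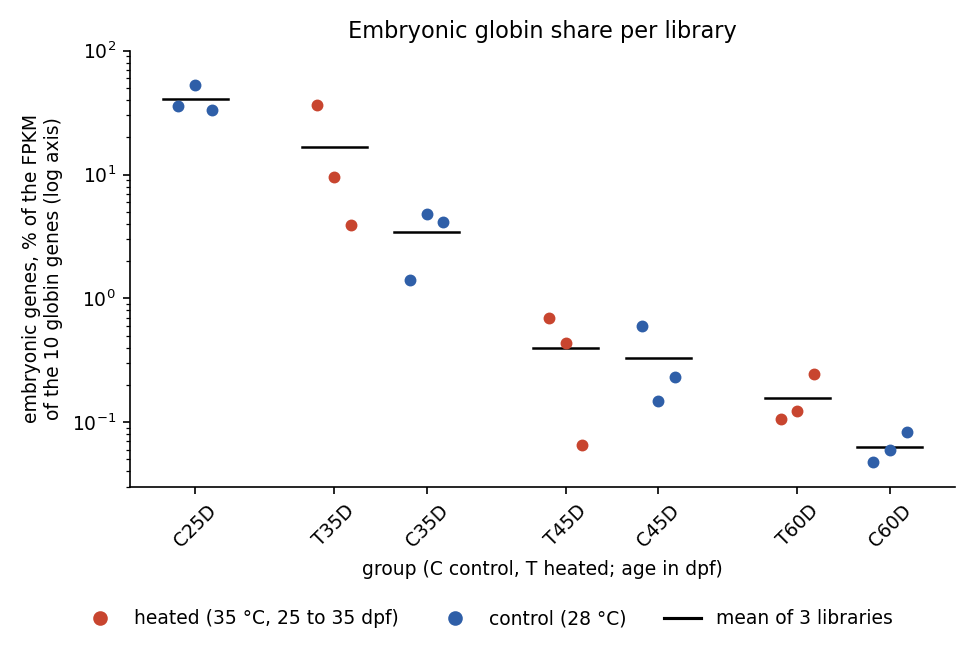
Embryonic globin share of each library, as the FPKM of 6 embryonic genes in percent of that of 10 globin genes, on a log axis. Points are libraries, bars are means of 3, heated groups are red and controls blue; the control libraries fall apart by age without overlap, and T35D-1 stands at 36.8%, within the range of C25D.

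The embryonic genes carried most of this difference between C35D and C25D. By the quasi-likelihood test of edgeR, adjusted by the Benjamini-Hochberg method, hbae3, hbbe1.2, hbbe1.1 and hbbe2 were down-regulated in C35D vs. C25D, 4 of the 6 (adjusted p at or under 0.05). Among all 21660 genes tested, 2.00% were called lower and 2.22% higher, 4.22% in all, and 25.4% had an unadjusted p at or under 0.05. All 6 embryonic genes were lower in every C35D library than in any C25D library, which held for 20.0% of all genes. The counts of hbae3, hbbe1.2 and hbae1.1 at later ages were too low to pass the filter on low counts without the C25D libraries. A lower level against C25D was thus favoured in advance for these genes, and their part in these counts is no support. In bulk RNA, fewer cells of a type and less RNA per cell cannot be told apart, here and in every later comparison.

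Among the genes of the chromosome 12 pair, hbbe2, a beta chain, had 631, 535 and 427 CPM in C25D, 59.3, 123 and 85.6 CPM in C35D, 12.4, 2.26 and 4.39 CPM in C45D and 0.211, 1.56 and 1.42 CPM in C60D. Its alpha neighbour hbae5 had 502, 321 and 256 CPM in C25D, 57.4, 95.3 and 66.7 CPM in C35D, 10.6, 1.73 and 3.60 CPM in C45D and 0.140, 2.53 and 1.19 CPM in C60D. Both declined in steps, with no overlap between 25 and 35 dpf or between 35 and 45 dpf. Of all genes, 20.0% were lower without overlap in C35D vs. C25D and 14.7% in C45D vs. C35D. In C35D vs. C25D the log2 fold change of hbbe2 was -2.57 (SE 0.61, edgeR adjusted p = 0.0446) and that of hbae5 was -2.29 (SE 0.69, edgeR adjusted p = 0.0795), so that only hbbe2 passed. In C45D vs. C35D the log2 fold change was -3.84 (SE 0.66, edgeR adjusted p = 0.00907) for hbbe2 and -3.81 (SE 0.75, edgeR adjusted p = 0.0159) for hbae5, and both were down-regulated. In C60D vs. C45D it was -2.54 (SE 0.70, edgeR adjusted p = 0.0176) for hbbe2 and -2.04 (SE 0.79, edgeR adjusted p = 0.0675) for hbae5. The log2 CPM of the pair had a Pearson correlation of 0.99 over the 21 libraries, a description across libraries that share their groups.

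Of the embryonic genes of chromosome 3, hbae3, hbbe1.1 and hbbe1.2 had larger fold changes in C35D vs. C25D than the chromosome 12 pair, a difference between genes that was not tested. The beta chain hbbe1.1 had 162, 445 and 348 CPM in C25D, 6.87, 14.7 and 6.35 CPM in C35D, 4.88, 0.416 and 0.917 CPM in C45D and 0.140, 0 and 0.158 CPM in C60D. The alpha chain hbae3 had 30.0, 151 and 102 CPM in C25D, 0.149, 1.02 and 0.317 CPM in C35D, 1.60, 0 and 0 CPM in C45D and 0, 0.0974 and 0 CPM in C60D. Both had a wide gap after 25 dpf, and at 60 dpf they had between 0 and 2 counts per library. In C35D vs. C25D the log2 fold change was -5.09 (SE 0.78, edgeR adjusted p = 0.0137) for hbbe1.1 and -7.46 (SE 1.1, edgeR adjusted p = 0.0130) for hbae3. The beta chain hbbe1.2 had 15.7, 27.2 and 30.3 CPM in C25D and 0, 1.07 and 0.889 CPM in C35D, with no more than 0.364 CPM in any later control library. Its log2 fold change in C35D vs. C25D was -5.16 (SE 0.87, edgeR adjusted p = 0.0147). The alpha chain hbae1.1 was the lowest of the 6 at 25 dpf, with 2.64, 5.50 and 9.33 CPM in C25D and 1.57, 1.74 and 0.444 CPM in C35D. This gene did not pass, at a log2 fold change of -2.20 (SE 0.60, edgeR adjusted p = 0.0736). It had 0 counts in all C45D libraries and 3, 5 and 5 counts in the C60D libraries, and edgeR called it lower in C45D vs. C35D (adjusted p = 0.0123) and higher in C60D vs. C45D (adjusted p = 0.0163). No fold is given against 0 counts.

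In C45D vs. C35D, 3 embryonic genes were called, hbbe2, hbae5 and hbae1.1, all lower. Of all genes, 4.04% were called lower and 1.93% higher, 5.96% in all, with 23.9% at an unadjusted p at or under 0.05. In C60D vs. C45D, 3 were called, hbbe2 and hbbe1.1 lower and hbae1.1 higher, where 20.3% of all genes were called lower and 13.9% higher, 34.2% in all. Every C60D library was below every C45D library for hbbe2 and hbbe1.1, as for 26.7% of all genes. From 25 to 60 dpf, all 6 embryonic genes were down-regulated in C60D vs. C25D, with edgeR adjusted p between 2.25e-05 and 0.00159, in a comparison in which 50.0% of all genes were called. Here too, hbae3, hbbe1.2 and hbae1.1 could pass the filter only with the C25D libraries, which favoured a lower level in advance. The large background in the comparisons with C60D goes together with the loss of liver and eye transcripts in that group, whose part was not tested. Over the 9 control libraries without C60D, C35D vs. C25D gave 8 called genes of the 10 and C45D vs. C35D gave 3. Of all 21136 genes tested there, 1380 and 2465 were called. The calls of C35D vs. C25D rested on few libraries. Without C25D-2 or without C25D-3 none of the 10 genes passed (edgeR adjusted p of the 6 called genes between 0.0608 for hbaa2 and 0.150 for hbbe2), and without any other of the 12 control libraries of the fit between 4 and 7 did. Of all genes, 11 were called without C25D-2, 15 without C25D-3 and between 81 and 2926 without any other. C35D-1 was the library of this comparison with eye markers at only 2.32 CPM, and without it hbbe2 was missed (edgeR adjusted p = 0.0951) and the other 5 calls were kept. DESeq2 called 9 of the 10, all but hbaa1, and 2796 of all 26225 genes. One fit of all 21 libraries called none of the 10 genes in C35D vs. C25D, in C45D vs. C35D or in C60D vs. C45D. Of all 22391 genes it called 6, 0 and 1661 in these steps. Without C45D-3 no gene of the 10 was called in C45D vs. C35D (145 of all genes), and without C45D-1 only 1 was called in C60D vs. C45D (6012 of all genes).

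**Figure D2:**
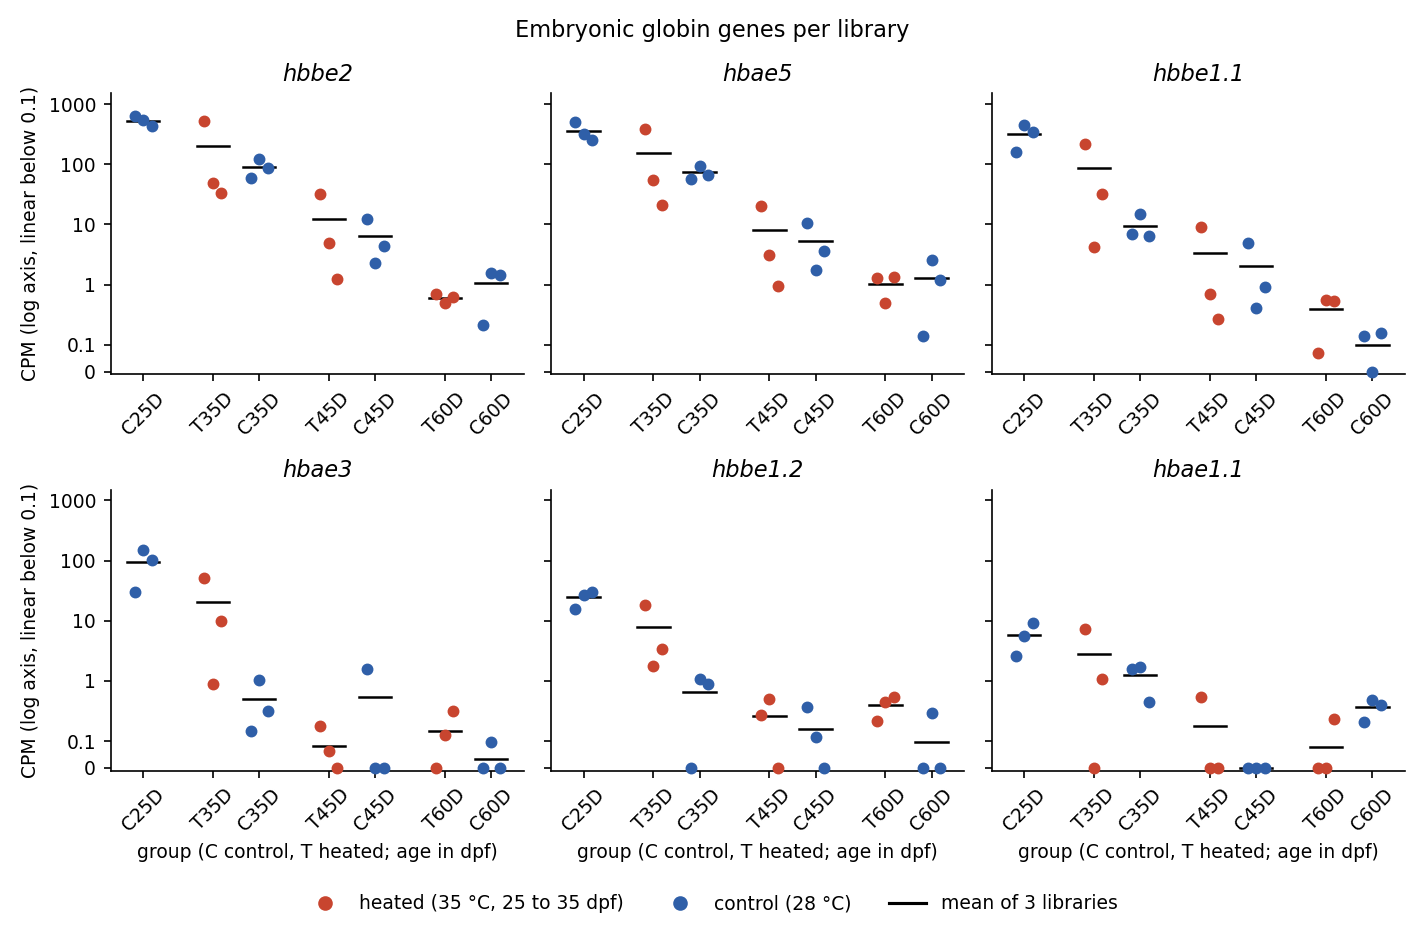
CPM of the 6 embryonic globin genes in each library (points), with the mean of 3 libraries (bars), on an axis that is logarithmic above 0.1 and linear below it. Heated groups are red and stand left of the control group of their age; in controls hbbe2 and hbae5 decline over 25, 35 and 45 dpf, while hbae3 and hbbe1.2 are at 1.60 CPM or below from 35 dpf on, and T35D-1 is the highest heated library for all 6 genes.

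The makeup of the embryonic FPKM differed between ages too. The chromosome 12 pair hbbe2 and hbae5 gave 85.3, 59.7 and 60.2% of the embryonic FPKM in C25D, 93.4, 92.6 and 95.3% in C35D, 78.4, 88.9 and 90.5% in C45D and 50.0, 82.8 and 82.3% in C60D. Every C35D library lay above every C25D library, and the pair held most of the FPKM of the 6 embryonic genes at both ages. The further embryonic genes hbae1.2, hbae1.3 and hbbe1.3 are not part of this share. Their mean levels were 1460, 413 and 156 FPKM in C25D and 83.1, 25.2 and 3.59 FPKM in C35D. This share was looked at after the levels had been seen and was not tested.

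The adult genes fell into a high and a low pair. In C25D, hbaa1 had 3220.1, 1716 and 3789.5 FPKM and hbba1 3153, 2037 and 3416 FPKM, whereas hbaa2 had 5.22, 5.45 and 6.83 FPKM and hbba2 5.79, 3.48 and 6.37 FPKM. The low pair hbaa2 and hbba2 was the one that passed the test with age. In CPM, hbba2 had 2.64, 1.46 and 2.47 in C25D, 33.5, 17.4 and 23.7 in C35D, 35.4, 73.2 and 55.5 in C45D and 57.6, 182 and 102 in C60D. Its alpha neighbour hbaa2 had 2.07, 1.99 and 2.30 in C25D, 54.6, 18.9 and 19.2 in C35D, 27.6, 46.7 and 41.3 in C45D and 36.5, 88.8 and 56.9 in C60D. Each C35D library lay above each C25D library for both genes, as did each C45D library above each C35D library for hbba2, while the other steps overlapped. Of all genes, 15.6% were higher without overlap in C35D vs. C25D and 18.1% in C45D vs. C35D. In C35D vs. C25D the log2 fold change was 3.89 (SE 0.52, edgeR adjusted p = 0.0106) for hbaa2 and 3.53 (SE 0.49, edgeR adjusted p = 0.0113) for hbba2, and both were up-regulated. Between 35 and 60 dpf no step passed for either gene, with hbba2 at a log2 fold change of 1.09 (SE 0.43, edgeR adjusted p = 0.158) in C45D vs. C35D and 1.12 (SE 0.43, edgeR adjusted p = 0.0644) in C60D vs. C45D. In C60D vs. C25D the log2 fold change was 5.73 (SE 0.53, edgeR adjusted p = 1.95e-05) for hbba2, a fold of 53.0, and 4.86 (SE 0.54, edgeR adjusted p = 5.84e-05) for hbaa2, a fold of 29.1.

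The high pair did not pass in any step. The alpha chain hbaa1 had 1277, 627 and 1280.0 CPM in C25D, 3747, 2506 and 1783 in C35D, 2080.4, 1572 and 1769.6 in C45D and 605, 4019 and 1818 in C60D. The beta chain hbba1 had 1490.0, 885 and 1379 CPM in C25D, 6553, 2990.1 and 2581 in C35D, 3642, 1850.5 and 2604 in C45D and 1070.2, 5315 and 2524 in C60D. All C35D libraries were above all C25D libraries, as for the low pair and for 15.6% of all genes, and the C60D libraries ranged more widely than those of any younger group. The log2 fold change in C35D vs. C25D was 1.36 (SE 0.58, edgeR adjusted p = 0.172) for hbaa1 and 1.73 (SE 0.58, edgeR adjusted p = 0.102) for hbba1, which did not pass. Over the 9 control libraries without C60D, hbba1 passed in that step (edgeR adjusted p = 0.0460). For a difference at any control age, 8 of the 10 globin genes were called by edgeR (50.0% of all genes were, and 57.7% had an unadjusted p at or under 0.05), and hbba1 (adjusted p = 0.122) and hbaa1 (adjusted p = 0.241) were not. Globin copies that are alike in sequence can share reads, which RSEM divides between them, so the level of each copy is less certain than their sum.

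**Figure D3:**
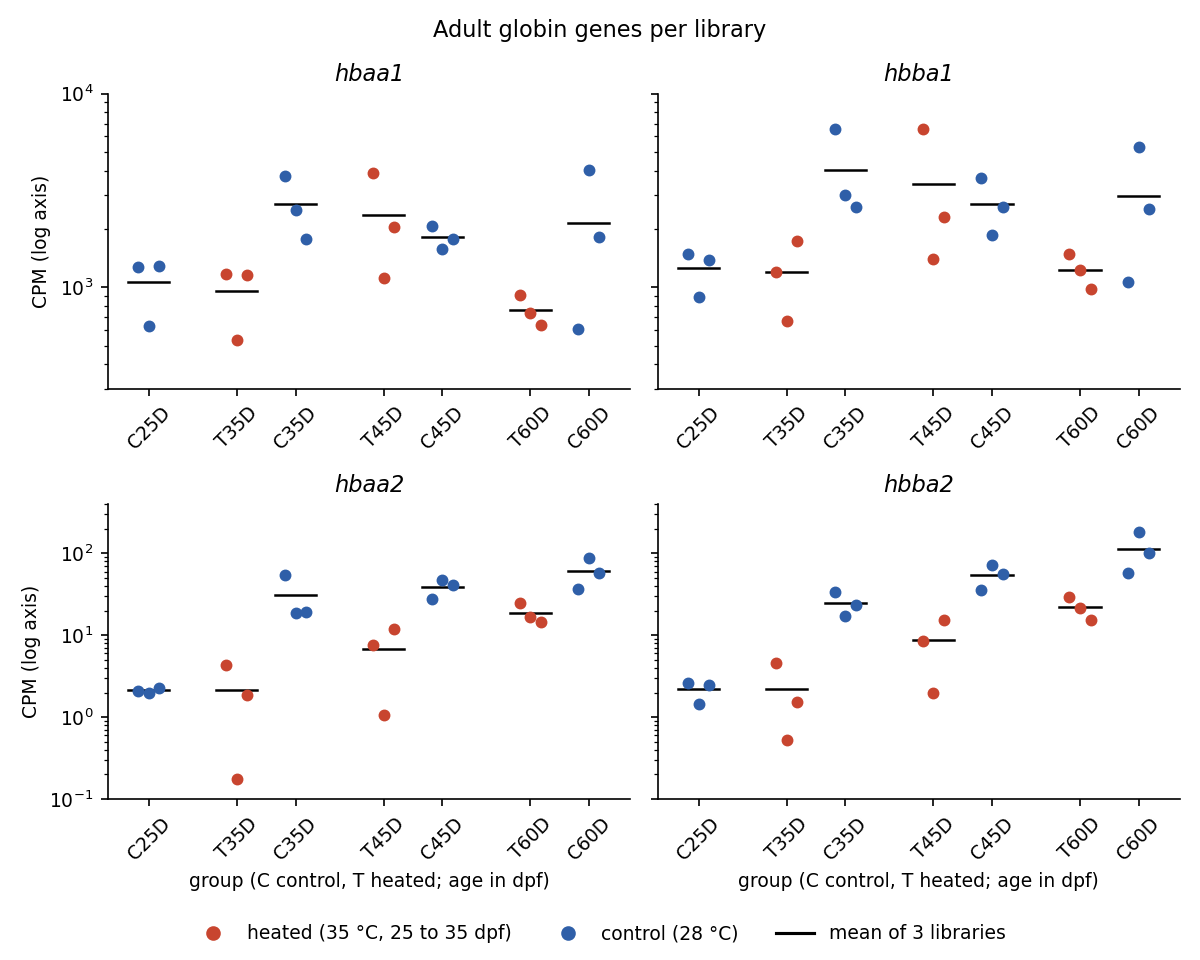
CPM of the 4 adult globin genes in each library (points) with the mean of 3 libraries (bars), on log axes. The upper panels show hbaa1 and hbba1 between 534 and 6553 CPM in every library; the lower panels show hbaa2 and hbba2, whose heated libraries (red) lie below all controls of the same age (blue, to their right) at 35, 45 and 60 dpf.

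Further embryonic globin genes of the cluster on chromosome 3, hbae1.2, hbae1.3 and hbbe1.3, were lower in older control fish as well. The alpha chain hbae1.2 had 465, 567 and 503 CPM in C25D, 7.02, 52.0 and 27.5 in C35D, 8.24, 0.833 and 1.51 in C45D and 0 counts in all C60D libraries. Its log2 fold change in C35D vs. C25D was -4.16 (edgeR adjusted p = 0.0414), that of hbae1.3 was -4.00 (edgeR adjusted p = 0.0343) and that of hbbe1.3 was -5.32 (edgeR adjusted p = 0.0139), all down-regulated. Beside the adult genes lie ba1l and si:ch211-5k11.8, which did not pass for a difference at any control age (edgeR adjusted p = 0.0523 for ba1l and 0.0949 for si:ch211-5k11.8). On chromosome 12, hbae4 did not pass either (edgeR adjusted p = 0.585), and hbbe3 was not analysed here. In T35D vs. C35D, ba1l and hbae4 had log2 fold changes of -2.51 and -1.45, and hbbe1.3 one of 3.70, with edgeR adjusted p of 0.192, 0.196 and 0.193. The gene si:ch211-5k11.8 had 390 to 1523 CPM in T35D and 1756 to 7867 CPM in C35D, lower without overlap, as were 14.2% of all genes. Its mean in C35D was 8491 FPKM, against 7994 FPKM for hbba1. Neither ba1l nor si:ch211-5k11.8 is part of the adult sums and shares of the 4 adult genes.

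The genes whose level over the 21 libraries was most like that of the globin genes were looked up among 22381 genes, by the Pearson correlation of log2 CPM. Most like the embryonic globin genes were hbae1.3 (r = 0.960), hbae1.2 (r = 0.941), mylpfb (r = 0.939), myhz1.3 (r = 0.921), cyt1 (r = 0.908), myhz1.2 (r = 0.904), epyc (r = 0.903) and hbbe1.3 (r = 0.897). Of these, 3 were globin genes, 3 code for fast muscle myosin chains, cyt1 for a keratin of the skin and epyc for a cartilage proteoglycan. Most like the adult globin genes were dipk2b (r = 0.875), zgc:158445 (r = 0.855), thbs3a (r = 0.810), ba1l (r = 0.802), lgals2a (r = 0.780), si:ch211-5k11.8 (r = 0.777), ft2 (r = 0.774) and mstnb (r = 0.765), which include both further globin genes beside the adult ones and the myostatin gene mstnb. Among the 10 genes themselves, hbaa2 and hbba2 had r = 0.95 and hbaa1 and hbba1 r = 0.87, while the beta genes hbba1 and hbba2 had r = 0.49 and the alpha genes hbaa1 and hbaa2 r = 0.56. Thus, an adult gene resembled its neighbour of the other chain more than the second gene of its own chain. The libraries share age, tissue makeup and scaling, so these correlations are descriptions.

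The second question was whether fish that had been heated differed from controls of their age. At 35 dpf, at the end of the warm period, all 4 adult globin genes were lower in every T35D library than in any C35D library, which held for 14.2% of all 20208 genes tested. For hbba2 the T35D libraries had 4.65, 0.528 and 1.53 CPM and the C35D libraries 33.5, 17.4 and 23.7 CPM. For hbaa2 they had 4.37, 0.176 and 1.86 CPM in T35D and 54.6, 18.9 and 19.2 CPM in C35D. The heated fish were thus near the level of C25D for both genes, and T35D-2 had only 2 counts of hbaa2. The log2 fold change was -3.47 (SE 0.79) for hbba2 and -3.84 (SE 1.00) for hbaa2, with edgeR adjusted p = 0.192 for both. For hbba1 the values were 1204, 673 and 1723 CPM in T35D and 6553, 2990.1 and 2581 CPM in C35D, and for hbaa1 1175, 534 and 1155 CPM in T35D and 3747, 2506 and 1783 CPM in C35D. Their log2 fold changes were -1.76 (SE 0.61) for hbba1 and -1.5 (SE 0.55) for hbaa1, again with edgeR adjusted p = 0.192. No gene of the whole table passed in this comparison (0%), while 24.1% of all genes and 7 of the 10 globin genes had an unadjusted p at or under 0.05. The median log2 fold change of all genes was 0.27.

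The embryonic genes were spread widely among the heated replicates. For hbbe2 the T35D libraries had 531, 48.7 and 33.7 CPM and the C35D libraries 59.3, 123 and 85.6 CPM, and for hbae5 380.4, 54.0 and 21.4 CPM in T35D and 57.4, 95.3 and 66.7 CPM in C35D. For hbbe1.1 they had 221, 4.22 and 32.6 CPM in T35D and 6.87, 14.7 and 6.35 CPM in C35D. In each of these genes T35D-1 was far above all controls and 1 or both of the other heated libraries were below the lowest control. For hbae3 the T35D libraries had 50.7, 0.879 and 10.0 CPM and the C35D libraries 0.149, 1.02 and 0.317 CPM, and for hbbe1.2 18.3, 1.76 and 3.38 CPM in T35D and 0, 1.07 and 0.889 CPM in C35D. Only hbbe1.2 was higher in every T35D library than in any C35D library (9.90% of all genes were). The log2 fold change was 5.30 (SE 1.45, edgeR adjusted p = 0.192) for hbae3, 3.53 (SE 1.28, edgeR adjusted p = 0.192) for hbbe1.2 and 3.20 (SE 1.24, edgeR adjusted p = 0.195) for hbbe1.1. The alpha chain hbae1.1 had 7.35, 0 and 1.06 CPM in T35D and 1.57, 1.74 and 0.444 CPM in C35D. For hbbe2, hbae5 and hbae1.1 the log2 fold change was 1.19, 1.05 and 1.16. By unadjusted p at or under 0.05, 3 of the 6 were higher and none was lower, against 15.8% of all genes higher. Of these, hbae3 and hbbe1.2 had too few counts in C35D to pass the filter on low counts without the T35D libraries. A higher level in T35D was thus favoured in advance for both, and so was the lack of overlap of hbbe1.2.

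The library T35D-1 decided several of these values. Its embryonic share was 36.8%, against 9.51% in T35D-2 and 3.93% in T35D-3, and 1.41, 4.78 and 4.12% in C35D. The mean difference of T35D minus C35D was 13.3 percentage points (exact permutation p = 0.3, where 0.1 is the smallest p of 3 against 3), and it was 3.28 percentage points without T35D-1. T35D-1 also differed from the other heated libraries in its markers, with oocyte markers at 16.2 CPM against 19381 and 14951 CPM in T35D-2 and T35D-3. Without T35D-1, edgeR called hbba2 (log2 fold change -4.79, adjusted p = 0.0109), hbaa2 (log2 fold change -5.09, adjusted p = 0.0184) and hbbe2 (log2 fold change -1.36, adjusted p = 0.0447) as down-regulated, among 6642 called genes, and the log2 fold changes of hbae5 (-1.21) and hbae1.1 (-1.38) changed sign. DESeq2 on all 6 libraries called hbba2 (adjusted p = 0.00184) and hbaa2 (adjusted p = 0.00414) lower and hbae3 (adjusted p = 0.00112), hbbe1.2 (adjusted p = 0.0323) and hbbe1.1 (adjusted p = 0.0406) higher, among 1670 called genes.

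At 45 dpf, 10 days after the return to 28 °C, the low adult pair was again below controls and the high pair was not. For hbba2 the T45D libraries had 8.44, 1.96 and 15.6 CPM and the C45D libraries 35.4, 73.2 and 55.5 CPM, and for hbaa2 7.54, 1.08 and 12 CPM in T45D and 27.6, 46.7 and 41.3 CPM in C45D. No heated library reached the lowest control for either gene, as for 17.6% of all 20125 genes tested. The log2 fold change was -2.60 (SE 0.74, edgeR adjusted p = 0.223) for hbba2 and -2.43 (SE 0.80, edgeR adjusted p = 0.252) for hbaa2. Both had an unadjusted p at or under 0.05 (15.8% of all genes did, 5.26% higher and 10.5% lower), and neither passed after adjustment, as for all genes (0%). DESeq2 called hbba2 (adjusted p = 0.0441) among 677 genes, and without T45D-2 edgeR called hbaa2 (log2 fold change -1.91, adjusted p = 0.0380) among 1664. For hbba1 the values were 6532, 1402 and 2301 CPM in T45D and 3642, 1850.5 and 2604 CPM in C45D, and for hbaa1 3905, 1109 and 2048 CPM in T45D and 2080.4, 1572 and 1769.6 CPM in C45D. Both overlapped, at log2 fold changes of 0.41 for hbba1 and 0.45 for hbaa1, which were -0.13 and -0.14 when only library size was scaled. That scaling moved the median log2 fold change of all genes to -0.43, against 0.12 with TMM, and hbba2 and hbaa2 lay below both medians, at -3.51 and -3.33 under library size only. T45D-3, which lacked liver and eye transcripts, had the highest CPM of hbba2 and hbaa2 of the T45D libraries. Its TMM factor was 0.491, the lowest of the series, which raises its CPM, and 10 genes held 40.4% of its counts. In FPKM, hbaa2 was highest in T45D-1 instead. Without T45D-3 the log2 fold changes were -3.26 for hbba2 and -3.04 for hbaa2 (edgeR adjusted p = 0.186 for both).

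The embryonic genes were low at 45 dpf in both groups. For hbbe2 the T45D libraries had 31.5, 4.94 and 1.23 CPM and the C45D libraries 12.4, 2.26 and 4.39 CPM, at a log2 fold change of 1.06 (SE 1.15, edgeR adjusted p = 0.638). For hbae5 they had 20.2, 3.16 and 0.956 CPM in T45D and 10.6, 1.73 and 3.60 CPM in C45D, and for hbbe1.1 8.98, 0.696 and 0.273 CPM in T45D and 4.88, 0.416 and 0.917 CPM in C45D. All 3 overlapped, where 8.87% of all genes were higher with no overlap, and without T45D-1 their log2 fold changes turned negative (-0.84 for hbbe2, -1.16 for hbae5 and -1.82 for hbbe1.1). Counts of hbae1.1, hbae3 and hbbe1.2 were too low for the test. The embryonic share was 0.699, 0.435 and 0.0654% in T45D and 0.602, 0.149 and 0.233% in C45D, a difference of 0.0719 percentage points (exact permutation p = 0.8), which was -0.0777 without T45D-1.

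At 60 dpf the low adult pair was below controls once more. For hbba2 the T60D libraries had 29.5, 21.8 and 15.2 CPM and the C60D libraries 57.6, 182 and 102 CPM, and for hbaa2 24.8, 16.6 and 14.6 CPM in T60D and 36.5, 88.8 and 56.9 CPM in C60D. Again no heated library reached the lowest control, as for 16.6% of all 18653 genes tested. The log2 fold change was -2.38 (SE 0.55, edgeR adjusted p = 0.145) for hbba2 and -1.73 (SE 0.46, edgeR adjusted p = 0.145) for hbaa2. These 2 of the 6 globin genes tested had an unadjusted p at or under 0.05 (25.6% of all genes did, 9.53% lower and 16.1% higher), and no gene of the table passed after adjustment (0%). For hbba1 the values were 1492, 1221 and 980.3 CPM in T60D and 1070.2, 5315 and 2524 CPM in C60D, and for hbaa1 911, 732 and 641 CPM in T60D and 605, 4019 and 1818 CPM in C60D. The heated libraries overlapped with C60D-1, the lowest control, and the log2 fold change was -1.31 (SE 0.63, edgeR adjusted p = 0.234) for hbba1 and -1.54 (SE 0.69, edgeR adjusted p = 0.211) for hbaa1. DESeq2 called hbba2 (adjusted p = 0.00481) and hbaa2 (adjusted p = 0.0301) among 3149 genes, one edgeR fit of all 21 libraries called hbba2 (adjusted p = 0.0422), and without T60D-1 edgeR called both (adjusted p = 0.0284 for hbba2 and 0.0273 for hbaa2) among 6288 genes.

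The groups of 60 dpf also differed in tissue markers, with liver markers at 29233, 14.2 and 18661 CPM in T60D and 6.53, 22.1 and 4.75 CPM in C60D. T60D-2, which like the controls lacked liver and eye transcripts, had 21.8 CPM of hbba2 and 16.6 CPM of hbaa2, below each C60D library, and without it hbba2 had a log2 fold change of -2.25 (edgeR adjusted p = 0.143) and hbaa2 one of -1.52 (edgeR adjusted p = 0.187). The oocyte markers were high in 5 of the 9 heated libraries. The 4 heated libraries in which they summed to 67.4 CPM or less, T35D-1, T45D-1, T45D-3 and T60D-1, had 4.65, 8.44, 15.6 and 29.5 CPM of hbba2, in each case below all controls of the same age. These are 1 or 2 libraries per age, and the part of the liver, eye and oocyte markers in the globin differences was not tested.

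At 60 dpf the embryonic share was 0.107, 0.123 and 0.245% in T60D and 0.0477, 0.0596 and 0.0832% in C60D. Every heated library was above every control, at a mean difference of 0.0945 percentage points (exact permutation p = 0.1, the smallest p of 3 against 3). This share rests on few reads. The embryonic genes had 32 of 34750, 34 of 31782 and 46 of 21273 globin counts in T60D and 10 of 25227, 51 of 98611 and 40 of 56889 in C60D. The 95% Wilson intervals, which cover counting error only, were 0.0652 to 0.130%, 0.0766 to 0.149% and 0.162 to 0.288% in T60D, and 0.0215 to 0.0730%, 0.0393 to 0.0680% and 0.0516 to 0.0957% in C60D. The interval of T60D-3 lay apart from those of all controls, that of T60D-1 overlapped with them, and that of T60D-2 overlapped with that of C60D-3. The embryonic FPKM was 5.67 ± 0.827 in T60D and 5.81 ± 3.44 in C60D, while the adult FPKM was 3947 ± 1192 in T60D and 8856 ± 4960 in C60D (SD, n = 3 each). Of the embryonic genes, hbbe2 had 0.708, 0.502 and 0.622 CPM in T60D and 0.211, 1.56 and 1.42 CPM in C60D, and hbae5 had 1.27, 0.502 and 1.32 CPM in T60D and 0.140, 2.53 and 1.19 CPM in C60D. Both overlapped between the groups. Counts of the others were few, with hbbe1.1 at 1, 9 and 7 counts in T60D and 2, 0 and 2 in C60D, and hbbe1.2 at 3, 7 and 7 counts in T60D and 0, 3 and 0 in C60D. The remaining genes, hbae3 and hbae1.1, had no more than 4 counts in any T60D library and no more than 5 in any C60D library.

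**Figure D4:**
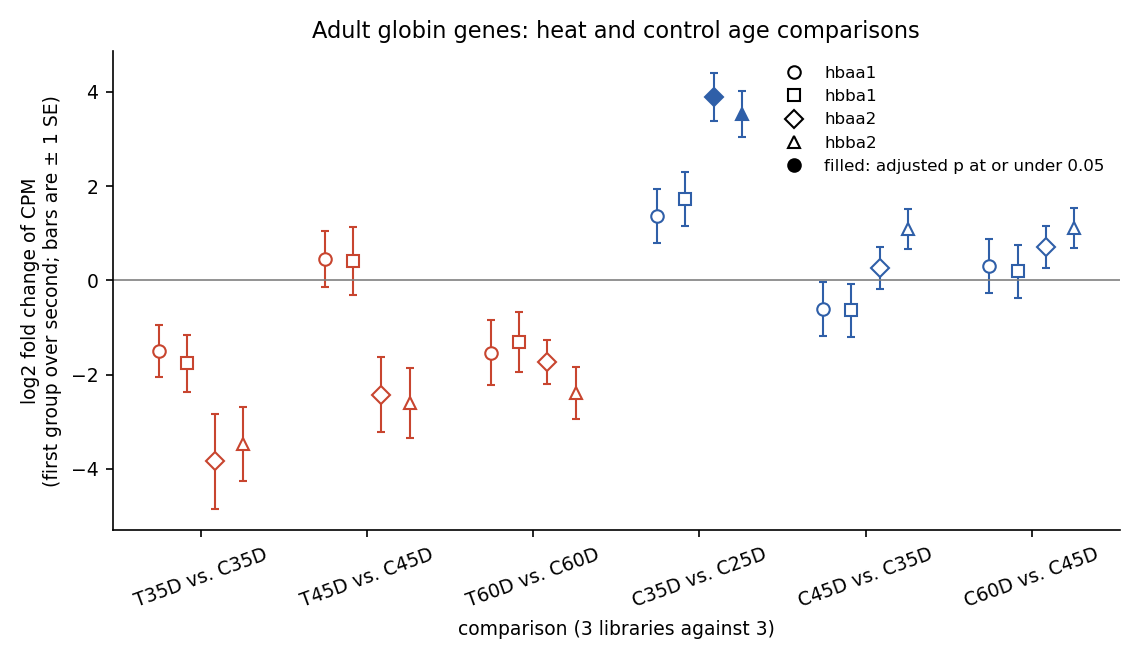
Log2 fold changes of the 4 adult globin genes in the heat comparisons (red, left) and the steps of the control age course (blue, right), 3 libraries against 3, with bars of 1 SE. Filled symbols passed edgeR's test after adjustment, which only hbaa2 and hbba2 did, in C35D vs. C25D; both genes are negative in all 3 heat comparisons, from -3.84 for hbaa2 at 35 dpf to -1.73 for hbaa2 at 60 dpf.

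The heat effects at 35, 45 and 60 dpf were compared with each other in 1 edgeR fit of 18 libraries. For a difference in the heat effect between ages, none of the 10 globin genes passed (adjusted p between 0.264 and 0.904), nor did any of the 22204 genes tested (0%, with 14.2% at an unadjusted p at or under 0.05), whereas DESeq2 called 1058 genes, none of them among the 10. For hbba2 the adjusted p was 0.823 and for hbaa2 0.601, and a p that misses the threshold does not show that the effects were alike.

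Within the adult genes, the share of the low pair does not depend on scaling between libraries. The genes hbaa2 and hbba2 gave 0.384, 0.0577 and 0.123% of the adult FPKM in T35D, against 0.900, 0.675 and 1.00% in C35D. They gave 0.159, 0.122 and 0.639% in T45D, against 1.13, 3.42 and 2.22% in C45D. They gave 2.29, 1.99 and 1.87% in T60D, against 5.46, 2.84 and 3.58% in C60D, and 0.172, 0.237 and 0.183% in the younger C25D. At each age all heated libraries were below all controls, and in controls the share was higher at each later age, with overlap only between C45D and C60D. The beta side behaved in the same way, with hbba2 at no more than 2.01% of the adult beta FPKM in T60D and no less than 3.44% in C60D. On the alpha side the groups of 60 dpf overlapped, since hbaa2 was 2.66% of the adult alpha FPKM in T60D-1 and 2.17% in C60D-2. These shares were chosen after the values had been seen, so they are given with no test.

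**Figure D5:**
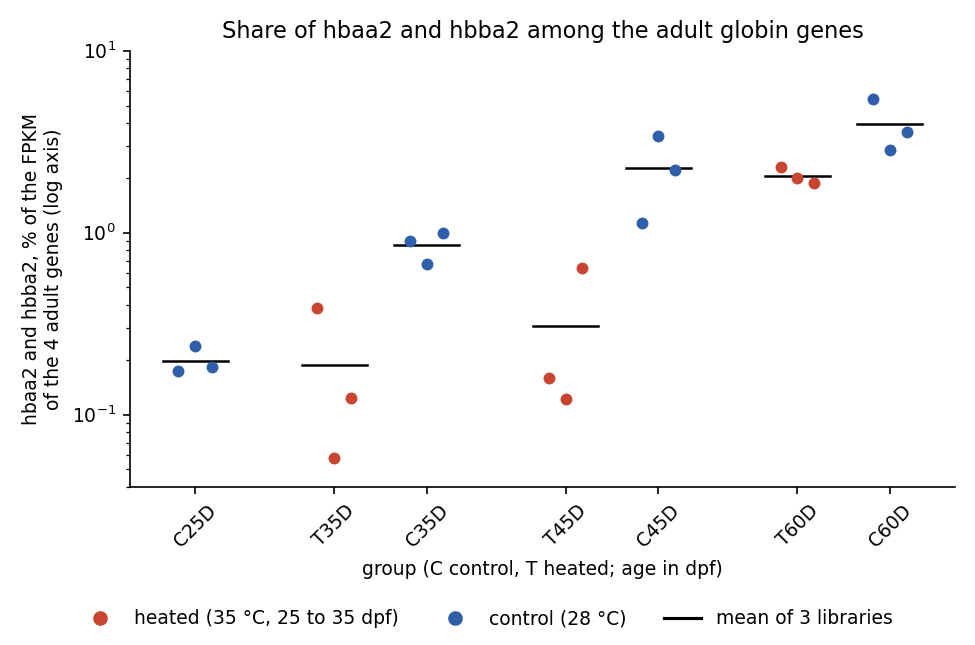
Share of hbaa2 and hbba2 in the FPKM of the 4 adult globin genes, in percent on a log axis, for each library (points) and the mean of 3 (bars). The heated libraries (red) lie below the controls of their age (blue, to their right) at 35, 45 and 60 dpf, and T35D lies around the level of C25D.

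To set the globin genes against the red cells themselves, the 16 red cell genes, which code for membrane and cytosol proteins such as the anion exchanger slc4a1a and the carbonic anhydrase cahz, were summed in each library. Adult globin CPM per CPM of these genes was 2.63, 1.98 and 4.62 in T35D, against 6.25, 6.05 and 4.98 in C35D. It was 8.52, 4.55 and 4.19 in T45D, against 7.00, 5.22 and 6.25 in C45D. It was 3.35, 4.69 and 2.71 in T60D, against 5.22, 11.4 and 9.16 in C60D, and 3.16, 1.90 and 2.89 in C25D. The heated libraries were below all controls at 35 and 60 dpf and overlapped with them at 45 dpf. The list sum leans on prdx2, which is also read from other tissues and had 276, 198 and 246 CPM in T35D and 412, 322 and 341 CPM in C35D. At 60 dpf prdx2 was instead higher in every heated library, at 258, 171 and 388 CPM in T60D and 83.5, 155 and 99.5 CPM in C60D. In T60D-3 it made up most of the list sum of 610 CPM. A higher prdx2 lowers the ratio, and no ratio without prdx2 was calculated, so the lower ratios of T60D may rest on this gene. Set against slc4a1a alone, the adult globin level overlapped between heated and control libraries at every age. It was 54.6, 56.5 and 85.1 CPM per CPM of slc4a1a in T35D and 45.8, 59.5 and 68.8 in C35D, and 65.0, 88.7 and 113 in T60D and 74.4, 154 and 129 in C60D. At 35 dpf slc4a1a was itself lower in every heated library, and at 60 dpf the summed adult CPM overlapped, at 2457, 1991 and 1651 in T60D and 1769.6, 9605 and 4501 in C60D. Whether the adult globin genes differed relative to the red cells thus depended on the genes they were set against. The ratios are descriptions with no test, and that to slc4a1a was added after the values had been seen.

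Other genes of red cell formation were counted from lists. In T35D vs. C35D no gene of any list passed after adjustment. Of 13 erythroid transcription factors tested, 7 had an unadjusted p at or under 0.05 and all of those were lower (8.33% of all genes were), with a median log2 fold change of the list of -1.16. They were gata1a, myb, zfpm1, gfi1b, klf17, klf1 and cbfb, and these genes, slc4a1a and alas2 are named after their values were seen. The erythroid master regulator gata1a had 1.87, 1.67 and 1.66 CPM in T35D and 11.5, 5.63 and 3.05 CPM in C35D, with no overlap. Of 16 red cell genes, 3 were lower at an unadjusted p at or under 0.05, with a median of -0.60, and slc4a1a had 43.8, 21.4 and 33.8 CPM in T35D and 227, 92.9 and 64.1 CPM in C35D, with no overlap. Of 18 genes of heme synthesis and mitochondrial iron import, 1 was lower at that p, with a median of 0.42, and alas2, the red cell enzyme that starts heme synthesis, had 128, 108 and 89.4 CPM in T35D and 396, 166 and 83.1 CPM in C35D, which overlapped. Leukocyte markers were lower as well, in 8 of 15 genes at that p and with a median of -1.43, as were liver markers in 9 of 11 with a median of -1.87, and oocyte markers had a median of 3.77. Thrombocyte, eye and fast muscle markers had medians of -0.75, 0.99 and -0.08. The part of these marker differences in the globin values was not tested.

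At 45 and 60 dpf no gene of any list passed either. The medians of the erythroid transcription factors were -0.19 in T45D vs. C45D and -0.83 in T60D vs. C60D, those of the red cell genes 0.15 and -0.63, and those of the heme synthesis list 0.75 and 0.78, where the medians of all genes were 0.12 and -0.02. In T60D vs. C60D, 6 of 18 heme synthesis genes were higher at an unadjusted p at or under 0.05 (16.1% of all genes were). The iron handling list had medians of -0.13, 0.29 and 0.06 in the 3 heat comparisons from 35 to 60 dpf, and the hypoxia response list 0.16, 0.15 and 0.25. Markers of other cells were counted in the same way. In T45D vs. C45D, leukocyte markers had a median of -1.11, with 6 of 15 lower at an unadjusted p at or under 0.05 (10.5% of all genes were), eye markers a median of -2.83, with 0 of 15 above zero, and fast muscle markers a median of 1.26, with 12 of 12 above zero. The medians of liver and thrombocyte markers were -0.40 and 0.03, and that of the 4 oocyte markers tested was 5.04. In T60D vs. C60D the medians were -0.39 for leukocyte, -1.08 for thrombocyte, -0.57 for fast muscle markers, and 8.38 for the 5 oocyte, 10.71 for the 5 liver and 5.91 for the 4 eye markers tested. The lists hold 15 oocyte, 11 liver and 15 eye markers, and the others had too few counts to pass the filter. A marker almost absent from the controls could pass that filter only through heated libraries. The positive medians of the oocyte markers at 45 and 60 dpf and of the liver and eye markers at 60 dpf were thus fixed in advance. The part of these markers in the globin values was not tested either.

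In the control age course the lists of red cell formation had few calls before 60 dpf, while the oocyte markers had many. Of 11 oocyte markers tested, 9 were called higher in C35D vs. C25D (median 7.11), against 2.22% of all genes. In C45D vs. C35D, 9 were called lower (median -7.15), against 4.04% of all genes. A marker almost absent from C25D and C45D could pass the filter only through other groups. The part of the oocyte markers in the globin values was not tested. In C35D vs. C25D, with 4.22% of all genes called, 1 of 18 heme synthesis genes was higher, none of 16 red cell genes passed, 1 of 14 erythroid transcription factors was lower (ldb1a, log2 fold change -0.72, edgeR adjusted p = 0.0401), and the medians were 0.39, 0.43 and 0.55 against 0.05 for all genes. In C45D vs. C35D, with 5.96% of all genes called, 3 of 18 heme synthesis genes were lower, among them cpox (log2 fold change -1.07, edgeR adjusted p = 0.00447) and alad (log2 fold change -1.05, edgeR adjusted p = 0.0176), which act in the heme pathway. The peroxiredoxin prdx2 (log2 fold change -1.06, edgeR adjusted p = 0.0250) and the gata1 cofactor zfpm1 (log2 fold change -1.63, edgeR adjusted p = 0.0127) were lower too. Of 19 hypoxia response genes, 1 was higher and 1 lower in each of these steps, and of 18 iron handling genes, none passed in C35D vs. C25D and 1 was lower in C45D vs. C35D (aco1, log2 fold change -1.34, edgeR adjusted p = 0.00926). In C60D vs. C45D, with 34.2% of all genes called, 4 heme synthesis genes were higher and 4 lower, and abcb6a had a log2 fold change of 1.88 (edgeR adjusted p = 0.000299).

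Among 15 tested factors known from mammals to act in globin switching, 1 was called in C35D vs. C25D, 3 in C45D vs. C35D and 6 in C60D vs. C45D, where 4.22%, 5.96% and 34.2% of all genes were called. The first was lower, of the 3 1 was higher and 2 were lower, and of the 6 1 was higher and 5 were lower. The medians of the list were -0.09, -0.17 and 0.01, and in C60D vs. C45D 9 of the 15 had a log2 fold change above zero. The RNA-binding protein igf2bp1, which in human red cells favours fetal globin, had 43.1, 45.6 and 45.7 CPM in C25D, 26.5, 29.3 and 25.6 in C35D, 20.1, 11.6 and 15.8 in C45D and 5.96, 6.63 and 5.62 in C60D. It was lower at each later age with no overlap, at log2 fold changes of -0.71 in C35D vs. C25D (edgeR adjusted p = 0.0497), -0.82 in C45D vs. C35D (adjusted p = 0.0250) and -1.33 in C60D vs. C45D (adjusted p = 0.000569). Of all genes, 20.0%, 14.7% and 26.7% were lower without overlap in these steps. The gene bcl11ab is a zebrafish ortholog of BCL11A, which silences fetal globin in human red cells. It had 16.1, 15.8 and 17.8 CPM in C25D and 6.95, 11.3 and 8.44 in C35D. Later it had 6.56, 4.58 and 5.50 CPM in C45D and 1.12, 1.85 and 0.95 in C60D. It passed in C60D vs. C45D (log2 fold change -2.05, edgeR adjusted p = 0.000435). In whole fish both genes are read from many tissues. Over the 21 libraries, igf2bp1 had a Pearson correlation of 0.882 and bcl11ab of 0.856 with the embryonic globin level in log2 CPM, as a description across libraries that share ages and tissues. In the heat comparisons none of the 15 passed, and igf2bp1 had 36.5, 31.0 and 23.4 CPM in T35D and 26.5, 29.3 and 25.6 in C35D.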

How the data were processed

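RNA of whole fish was sequenced on the BGISEQ-500 platform. After read filtering with SOAPnuke, the authors mapped to the coding genes of GRCz11 with Bowtie2 2.2.5 and deposited RSEM 1.2.12 expected counts and FPKM values per gene and library, replicates not pooled. RSEM divides short reads between near-identical globin copies. The submitters' notes also name HISAT2 2.0.4 and DESeq2 1.4.5. The deposited fold changes and p-values of their own comparisons were not used. Gene symbols came from RefSeq and matched 24087 of 26225 gene IDs.

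Expected counts were rounded, scaled with TMM, filtered with filterByExpr and tested with the quasi-likelihood F test of edgeR 4.0.16 (R 4.3.3), 6 libraries for each heat comparison, 12 for the control ages and 18 for the heat effect by age, with Benjamini-Hochberg adjustment over all genes tested and a threshold of 0.05. Shares were taken from FPKM and compared with two-sided exact permutation tests. Alternatives were DESeq2 1.42.0, other scalings, no filter on low counts, a replicate block, 1 fit of 21 libraries and leaving out each library, and, chosen after seeing the data, the control ages without C60D and 5 further globin genes. The edgeR steps of a comparison between groups were also run on simulated counts. That simulation held no outlying library, so it does not show how the steps behave with replicates as unlike as these. The replicates are labelled biological, and no pair of libraries agreed within sampling noise (chi-square per gene of at least 10.2).

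Named were the 10 globin genes, the 8 genes most like each set by correlation and up to 4 genes of each list. The list genes were ranked by their smallest unadjusted p in any heat comparison or control step. The members and lists were chosen with earlier results of these data known.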

Additional observations from a re-analysis of the deposited data

How the results depend on the processing

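DESeq2 called more genes than edgeR in every heat comparison: 1670 at 35 dpf (5 of the 10 globin genes), 677 at 45 dpf (1 globin gene), 3149 at 60 dpf (2 globin genes) and 1058 for the heat effect by age. It called 2796 genes in C35D vs. C25D (edgeR 914), 2659 in C45D vs. C35D (edgeR 1291), and 5 globin genes in C60D vs. C45D. One fit of all 21 libraries called 1 gene at 35 dpf and 3146 at 60 dpf (1 globin gene) for heat, 3125 for any control age, 6 in C35D vs. C25D, 0 in C45D vs. C35D, 1661 in C60D vs. C45D and 5581 in C60D vs. C25D, with 0 globin genes in the 3 single steps. Scaling by library size only called 9 genes for heat at 60 dpf, 241 in C35D vs. C25D (170 higher and 71 lower, against 480 and 434 with TMM) and 485 in C45D vs. C35D. It split C60D vs. C45D into 780 higher and 4817 lower (TMM 3019 and 4389) and C60D vs. C25D into 2425 and 6445 (TMM 5288 and 5544). Without C60D there were 4027 calls for any control age, 1380 in C35D vs. C25D and 2465 in C45D vs. C35D. The cause of these differences was not tested.

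Libraries of the same replicate number had mean correlations between -0.245 and 0.208 over the comparisons. In C35D vs. C25D the same-number values were 0.113, 0.181 and 0.0616, all above the highest other value of 0.0340. No other comparison had all same-number values above the highest other one. Whether the numbers pair libraries in that step was not tested. With the replicate block there were 585 calls in C35D vs. C25D (5 globin genes), against 914 (6 globin genes) without it. The block gave 0 calls in each heat comparison. Some fold changes turned sign under an alternative. With the block, hbae5 (-0.082) and hbbe2 (-0.11) turned for heat at 35 dpf, from 1.05 and 1.19 in the main fit. For heat at 60 dpf the block turned hbae5 (0.085), from -0.38. Under library size only, hbaa1 (-0.14) and hbba1 (-0.13) turned for heat at 45 dpf, from 0.45 and 0.41. This scaling also turned hbae5 (0.0063) at 60 dpf, and hbaa1 (-0.23) and hbba1 (-0.30) in C60D vs. C45D. In C45D vs. C35D, hbae3 turned with DESeq2 (0.049), 1 fit (0.013) and the block (0.10). The alpha genes alone gave a share difference at 45 dpf of -0.0038 percentage points. Of 517 values of the globin genes under such alternatives, 471 kept their direction and side of the threshold.

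Leaving out 1 library at a time gave these ranges. Heat at 35 dpf had 0 to 6642 calls (0 to 3 globin genes), at 45 dpf 0 to 1664 (0 to 1), at 60 dpf 0 to 6288 (0 to 2) and by age 0 to 59 (0). Any control age had 8190 to 11331 calls (8 to 10), C35D vs. C25D 11 to 2926 (0 to 7), C45D vs. C35D 145 to 2445 (0 to 4), C60D vs. C45D 5137 to 8219 (1 to 4) and C60D vs. C25D 8766 to 11408 (8 to 10). The share difference ranged from 3.28 to 19.7 percentage points at 35 dpf, -0.0777 to 0.239 at 45 dpf and 0.0512 to 0.120 at 60 dpf, and F over ages from 34.4 to 444. For heat at 35 dpf, hbae1.1 ranged from -1.38 to 1.74, hbae5 from -1.21 to 1.57 and hbbe2 from -1.36 to 1.7, with the lowest value without T35D-1. At 45 dpf, hbaa1 ranged from -0.043 to 0.80, hbba1 from -0.39 to 0.79, hbae5 from -1.16 to 1.74, hbbe1.1 from -1.82 to 2.44 and hbbe2 from -0.84 to 2.05, lowest without T45D-1. At 60 dpf, hbae5 ranged from -0.76 to 0.52. In C45D vs. C35D, hbaa2 ranged from -0.020 to 1.01 and hbae3 from -6.01 to 0.97; in C60D vs. C45D, hbaa1 ranged from -0.55 to 0.74, hbba1 from -0.56 to 0.58, hbae3 from -5.92 to 2.1 and hbbe1.2 from -4.28 to 0.42. Of 918 such values, 856 kept their direction and side.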
